A study of Mus musculus with 16 samples.

Results

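A CpG can be free of methylation in one culture and carry it on some of the DNA copies of a closely related culture, and 12915 such CpGs are described here. They were chosen by their level in the parental libraries of 2 sibling fibroblast cultures, where the level is the percentage of reads over a CpG that were called methylated. Each had 20 or more reads in both parental libraries, a level under 10% in the MEF-1 parental library and a level from 40 to under 90% in the MEF-2 parental library. They make up 1.07% of the 1203687 CpGs of the series table, and 1.22% of the 1062454 CpGs with that coverage in both parents. The parental levels are therefore the choice itself and carry no test, whereas the clonal lines were not used in the choice.

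The data are target capture bisulfite sequencing (tcBS-seq) of 16 libraries, in which captured DNA is treated so that unmethylated cytosines are read as thymines. MEF-1 and MEF-2 are mouse embryonic fibroblast lines from a pair of C57BL/6J sibling embryos at E13.5, a male and a female by the study's methods, and both were immortalised by serial passaging and received no treatment. Each parental culture, a mixture of cells, was sequenced once, and each gave 7 clonal lines, every one grown from a single sorted cell and sequenced once. A parental culture and its clonal lines are called a family, and as each family descends from 1 embryo, the families differ in embryo, sex and culture history at once and these cannot be told apart.

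In mammals methylation sits mostly on cytosines of CpG dinucleotides, and after each round of DNA replication the maintenance enzyme DNMT1 copies it to the new strand. CpG islands, which are dense in CpGs and often lie at promoters, are usually unmethylated, while CpG-poor DNA is mostly methylated. A single diploid cell can hold 0, 50 or 100% at a CpG whose strands match, so a clonal line that kept its founder's state should lie near one of these levels. Fibroblasts are connective tissue cells, and promoter methylation of genes of other lineages is common in such cultures.

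The libraries held between 59243669 and 90633091 methylation calls (reads summed over CpGs), and the median coverage of the chosen CpGs was 29 to 43 reads per library. MEF-1 clonal lines 1, 4 and 5 stood apart from the rest of their family. At the chosen CpGs their levels differed from each other by 7.69 to 8.00 points on average, against a mean of 9.19 over all 21 pairs of MEF-1 clonal lines, and results are also given without them. In MEF-2, clonal lines 2, 3, 4 and 7 were also closer to each other, at 15.8 to 18.6 points per pair at these CpGs. Every other pair of MEF-2 clonal lines was at 19.3 to 21.3 points, and the mean over all 21 was 19.3. Results are not given without these MEF-2 lines as a group. No pair of libraries had the same counts at more than 1.78% of CpGs. As a check of the labelled cell type, 7 promoters of mesenchymal genes with enough CpGs had a median level of 10.9% in each parental library, and 10 promoters of markers of other cell types had 54.2% in MEF-1 and 50.0% in MEF-2. Thy1, a surface marker of many fibroblasts, was at 98.3% in the MEF-1 parental library and was the highest of the mesenchymal promoters. Nothing places the 7 lines of a family in separate cultures before sorting, so p-values measure the spread between these lines.

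Sequences of the chosen CpGs come from the GRCm38.p6 reference, whose coordinates match the mm10 build of the files, and all 12915 lay at a CG of that reference. Some of the longest unbroken stretches are printed because they show most plainly what was chosen, 5′ to 3′ on the plus strand, with the chosen CpGs in capitals (CpGs left in lower case are not in the table). They are the stretch upstream of the vasopressin receptor gene Avpr1a (chr10:122448215-122448340, promoter), that beside the skeletal homeobox gene Nkx3-2 (chr5:41766522-41766721, intergenic), that in the long noncoding RNA gene Gm29478 (chr9:91406035-91406191), that in the adenylate kinase gene Ak5 (chr3:152478217-152478346, 6 CpGs in an intron and 1 in a coding exon), and those in introns of the nuclear receptor gene Nr2f1 (chr13:78195755-78195806) and of the signalling ligand gene Bmp7 (chr2:172939000-172939071).
Avpr1a: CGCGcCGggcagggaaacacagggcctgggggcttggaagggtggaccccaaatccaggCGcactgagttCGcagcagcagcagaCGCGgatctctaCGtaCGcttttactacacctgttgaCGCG
Nkx3-2: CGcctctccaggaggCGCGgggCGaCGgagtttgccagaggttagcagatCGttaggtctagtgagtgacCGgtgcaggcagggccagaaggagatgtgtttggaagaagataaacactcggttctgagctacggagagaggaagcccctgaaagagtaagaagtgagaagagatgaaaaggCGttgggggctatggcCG
Gm29478: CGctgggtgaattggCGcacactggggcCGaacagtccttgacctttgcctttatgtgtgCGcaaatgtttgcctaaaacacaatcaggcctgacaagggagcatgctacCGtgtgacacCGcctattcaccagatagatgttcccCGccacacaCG
Ak5: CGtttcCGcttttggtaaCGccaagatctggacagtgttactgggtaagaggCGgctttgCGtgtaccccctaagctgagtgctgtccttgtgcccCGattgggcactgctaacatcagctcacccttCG
Nr2f1: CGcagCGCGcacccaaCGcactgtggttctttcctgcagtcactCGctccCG
Bmp7: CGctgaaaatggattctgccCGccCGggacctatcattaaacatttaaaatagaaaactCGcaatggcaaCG

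Such stretches were the exception, since 10279 of the chosen CpGs (79.6%) had no chosen CpG directly beside them in the table. A lone CpG of this kind, with its 60 bases of surrounding sequence, lies in an intron of Gnao1, which encodes a G protein subunit abundant in neurons (chr8:93812421-93812480). Another lies in the promoter of Tctn1, a gene of the ciliary transition zone (chr5:122264763-122264822). Both were among the CpGs with the widest gap between the families and are described again at the end.
Gnao1: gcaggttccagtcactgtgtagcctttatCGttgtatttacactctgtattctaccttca
Tctn1: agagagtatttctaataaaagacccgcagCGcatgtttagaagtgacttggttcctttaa

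The first comparison asks whether clonal lines kept the state by which their parents were chosen. Over the 12915 CpGs, MEF-1 clones averaged 8.31% ± 0.889 (SD over 7 lines) and MEF-2 clones 53.7% ± 1.15 (SD over 7 lines), a difference of 45.4 points. The lowest, median and highest MEF-1 line had 7.24, 8.45 and 9.78%, and the lowest, median and highest MEF-2 line 52.1, 53.9 and 55.4%. The groups did not overlap. MEF-1 lines 1, 4 and 5 had 7.48% ± 0.273 (SD, n = 3) and the other 4 MEF-1 lines 8.92% ± 0.585 (SD, n = 4), so that without the former the difference was 44.8 points.

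**Figure D1:**
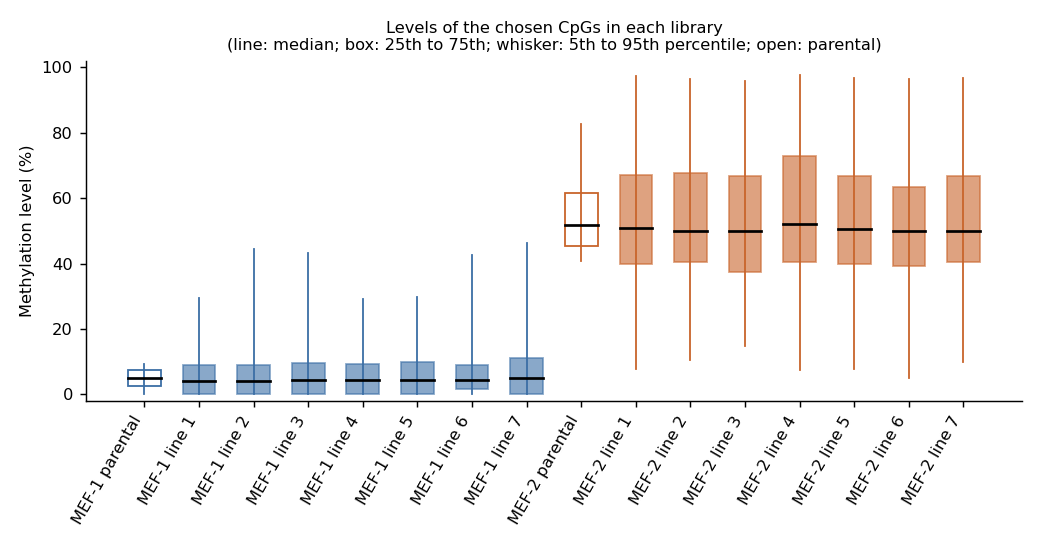
Methylation level in percent (vertical axis) of the 12915 chosen CpGs in each of the 16 libraries (horizontal axis), with the median as a line, the 25th to 75th percentile as a box and the 5th to 95th as a whisker; parental libraries, which set the choice, are open boxes. Medians of the MEF-1 clonal lines lie between 4.00 and 4.88% and those of the MEF-2 clonal lines between 50.0 and 52.0%, with MEF-2 whiskers reaching from under 15% to over 95%.

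CpG by CpG, 11091 of the 12915 (85.9%) were called higher in the MEF-2 than in the MEF-1 clonal lines, by a quasi-binomial model of methylated and unmethylated reads at an adjusted p under 0.05, Benjamini-Hochberg over all 1203687 CpGs. Across the whole table, 8.53% of CpGs were called in that direction, and of those with 20 or more reads in both parents 8.75%. Only 2 of the chosen CpGs were called lower in MEF-2, where 11.6% of all CpGs were. Every MEF-2 line lay above every MEF-1 line at 7325 of them (56.7%), against 4.22% of all CpGs and 4.36% of those with enough parental reads. A call with a difference of 50 points or more was made at 4059 (31.4%), where 1.72% of all CpGs and 1.75% of those with enough parental reads had one. With 20 points or more it was 11032 (85.4%), beside 7.97 and 8.17%. CpGs with the same MEF-2 parental range but 10 to under 40% in the MEF-1 parent were called higher at 52.6%, and CpGs partial in both parents at 13.6%. The difference of the line means had a median of 43.5 points, with quartiles of 34.8 and 53.6 points, and over all CpGs a median of −0.621 points. Without MEF-1 lines 1, 4 and 5 the calls were 9132 (70.7%), beside 6.48% of all CpGs.

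Levels of the MEF-2 clonal lines followed the level of their parental library. Where that parent had 40 to under 50% (mean 44.4%, 5346 CpGs), its clones averaged 45.2% ± 1.12 (SD, n = 7). The clonal mean was 50.9% ± 1.09 at parental levels of 50 to under 60% (mean 54.1%) and 59.3% at 60 to under 70% (mean 64.1%). At 70 to under 80% and at 80 to under 90% it was 73.6% ± 1.82 and 84.8% ± 0.852, with parental means of 74.5 and 84.9%. The share called higher went from 81.2% in the lowest of these classes to 98.4% in the highest. Near the limits of the choice, CpGs with a MEF-1 parental level of 8 to under 10% had 10.8% in the MEF-1 clonal lines, and CpGs just outside it, at 10 to 12%, had 12.3%. At MEF-2 parental levels of 40 to 42% the MEF-2 lines had 43.0%, and just outside, at 38 to under 40%, they had 40.9%. At the upper limit the values were 86.5% inside (88 to under 90%) and 89.8% outside (90 to 92%).

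The mean of a family hides how single lines were placed, which bears on how a partial level in a culture is divided among its cells. Of the chosen CpGs in a MEF-2 clone, 42.7% ± 2.59 (SD over 7 lines) lay at 40 to under 60%, 5.40% ± 1.16 under 10% and 12.5% ± 1.63 at 90% or more. The classes between held 19.3% ± 2.55 (10 to under 40%) and 20.1% ± 1.89 (60 to under 90%). Line 3 of MEF-2 had the most CpGs at 10 to under 40%, 25%, where the other lines had 17.7 to 19%. In a MEF-1 clone 75.9% ± 2.00 (SD over 7 lines) lay under 10%, and 3.25% ± 1.54 at 40 to under 60%.

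**Figure D2:**
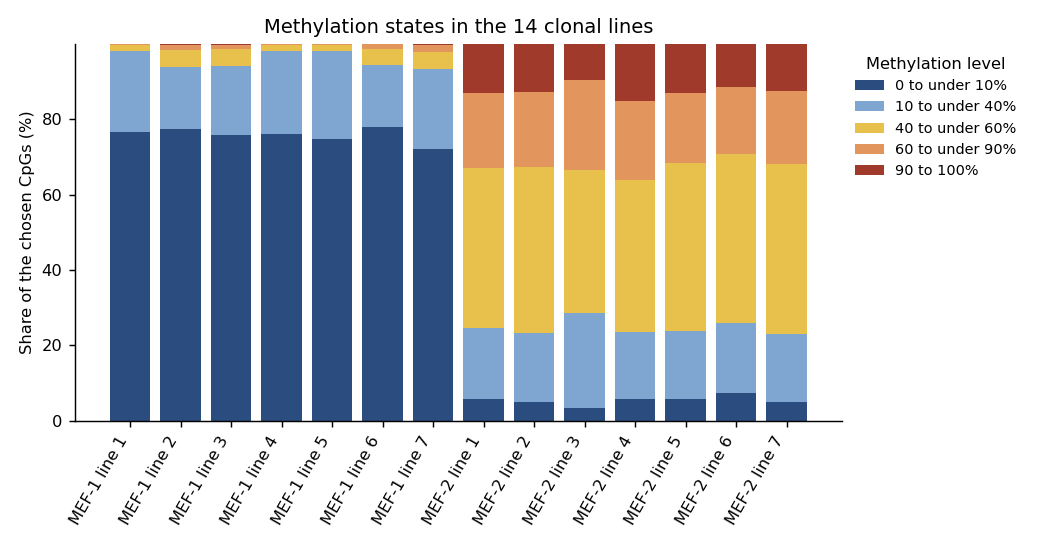
Share of the 12915 chosen CpGs in percent (vertical axis) in each of 5 methylation classes (colours) for the 14 clonal lines (horizontal axis). The class under 10% fills 72.0 to 78.1% of each MEF-1 line and the class from 40 to under 60% is the widest in each MEF-2 line, at 38.2 to 45%.

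All 7 MEF-2 lines lay from 10 to under 90% at 5598 of the chosen CpGs (43.3%), beside 28.6% of CpGs partial in both parents. At 484 (3.75%, beside 2.96%) at least 1 MEF-2 line was under 10% and another at 90% or more. At 216 (1.67%, beside 3.91%) all 7 were at 90% or more, and at 6 all 7 were under 10%. CpGs at 10 to under 40% in the MEF-1 parent and partial in MEF-2 had 33.9, 3.74 and 2.66% in the same order. The MEF-2 parental library averaged 55.1% at the chosen CpGs and 65.5% at CpGs partial in both parents. The sets compared in this paragraph were not matched on that level. The 7 MEF-2 lines differed by more than read sampling at 8384 CpGs (64.9%; chi-square test per CpG over 7 libraries, Benjamini-Hochberg over the table, which compares these libraries and takes each read as a molecule). The share was 36.8% over all CpGs. It was 75.0% at CpGs partial in both parents and 69.1% at CpGs at 90% or more in the MEF-1 parent and partial in MEF-2. With every library thinned to 10 reads per CpG, 25.4% of the chosen CpGs (3278) varied, beside 14.9% of all. The lines spread over 50 points or more at 5963 (46.2%), beside 17.0% of all CpGs. The between-clone variance share is 0 when all lines of a family have 1 level and highest when each is wholly methylated or wholly unmethylated. It was 0.126 ± 0.0102 (jackknife SE over 7 lines) in MEF-2. At CpGs partial in both parents it was 0.155 ± 0.0107.

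Levels near 50% were looked at more closely because a founder cell with methylation on 1 of its 2 chromosomes would give them. This takes 2 copies for granted, while coverage was even in all libraries on chromosomes 3, 4, 6, 9 and 11 only. The shares here cover all 16 chromosomes and were not recomputed on those. Among the 9218 chosen CpGs with a MEF-2 parental level of 40 to under 60%, a MEF-2 clonal line had 40 to 60% at 49.8% ± 3.03 (SD, n = 7). CpGs with the same MEF-2 parental level but 10 to under 40% in the MEF-1 parent had 42.4% ± 2.24, those at 40 to under 90% had 42.8% ± 2.52, and those at 90% or more had 46.9% ± 2.80. Within a line the chosen CpGs were above each of these classes in 7 of 7 lines, by 7.39 ± 1.10, 7.04 ± 0.681 and 2.89 ± 1.09 points, and as a score over chosen CpGs these differences carry no test. Were the true level 50% at all of them, read sampling at this coverage would leave 74.5 to 80.8% of CpGs at 40 to 60% in a line. That value takes each read as a separate molecule, and why the observed shares were lower was not tested. At 272 of all 12915 (2.11%) each of the 7 MEF-2 lines had 40 to 60%, and at 1392 (10.8%) none had.

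The MEF-1 family was not uniformly unmethylated. All 7 MEF-1 lines were under 10% at 3701 of the chosen CpGs (28.7%), where the same held at 74.5% of the CpGs with both parents under 10%. At 2772 (21.5%) at least 1 MEF-1 line had 40% or more, beside 2.60% of the CpGs with both parents under 10%. The opposite pattern, MEF-2 parent under 10% and MEF-1 parent at 40 to under 90%, was met by 14565 CpGs. There all 7 MEF-2 lines were under 10% at 37.6%, and at least 1 MEF-2 line had 40% or more at 27.8%. Among the 2772 it was 1 line at 2035 CpGs, 2 lines at 468, 6 lines at 2 and 7 lines at 0. Such levels were uneven over lines. MEF-1 lines 1, 4 and 5 had 40% or more at 1.87% ± 0.0819 (SD, n = 3) of the chosen CpGs and the other 4 lines at 6.04% ± 0.511 (SD, n = 4), without overlap (1.77 to 1.93% against 5.53 to 6.67%). The MEF-1 lines differed among themselves at 5365 CpGs (41.5%), beside 27.6% of all CpGs.

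The authors' own scores, deposited per CpG over the 14 clones, gave a further readout. The fidelity score, the fraction of lines at 0 to 10, 40 to 60 or 90 to 100%, averaged 0.709 over the chosen CpGs, 0.592 over CpGs partial in both parents and 0.833 over the table. The neighbour similarity score, the fraction of lines where a CpG and its closest measured neighbour lie within 10 points, averaged 0.418, 0.320 and 0.658 in the same order. The fidelity score pools both families, and the choice put the MEF-1 parent under 10%, a level that this score counts as faithful. Counted from the reads, a faithful level was held by 80.2% ± 2.47 of the chosen CpGs in a MEF-1 line and by 61.6% ± 4.09 in a MEF-2 line (SD, n = 7 each). At CpGs partial in both parents the shares were 59.95% ± 3.52 and 58.4% ± 3.59. The chosen CpGs thus lay further above these in the MEF-1 family.

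Runs, that is 3 or more CpGs that follow each other in the table with gaps of at most 200 bp and are all chosen, numbered 177 and held 634 of the CpGs (4.91%), with a median length of 39 bp. Among CpGs partial in both parents, a larger set of 111603 CpGs, 12.7% lay in such runs. At the opposite pattern, a set of 14565 CpGs, it was 6.12%. Of the 177 runs of chosen CpGs, 24 held 5 or more. In all 24 every MEF-2 line lay above every MEF-1 line in summed reads, which held at 56.7% of single chosen CpGs and 4.22% of all CpGs and was not computed for runs of other CpGs. In 19 all MEF-2 lines were from 10 to under 90%, and in none did a MEF-2 line fall under 10% or a MEF-1 line reach 40%. The MEF-2 lines of these runs spread over a median of 25.6 points and the MEF-1 lines over 8.82 points. CpGs of a run share reads, so a run is described by its summed reads and not as so many repeats.

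The longest run, 11 CpGs at 160 to 284 bp before the start of Avpr1a, the gene of a vasopressin receptor, also lies in an antisense transcript, Gm48877. Its parental levels were 2.38% (95% Wilson interval 1.37 to 4.12) in MEF-1 and 61.1% (55.5 to 66.5) in MEF-2. Intervals of runs count every call over a CpG as separate, and as CpGs of a run share reads they are too narrow. The MEF-1 lines had 2.88, 3.71 and 6.11% (lowest, median and highest) and the MEF-2 lines 33.0, 44.5 and 64.7%. The groups did not overlap, and MEF-2 line 4 was highest. The next, 9 CpGs 2021 to 2219 bp from the start of Nkx3-2, a homeobox gene of cartilage development, had 0, 1.59 and 2.82% in the MEF-1 lines and 40, 54.6 and 64.2% in the MEF-2 lines, with MEF-2 line 5 highest and line 4 lowest. The run of 8 CpGs in Gm29478, whose nearest protein-coding start is that of the neural zinc finger gene Zic4, was the most methylated of the 10 longest. Its MEF-2 lines had 72.8, 77.8 and 89.9%, and its MEF-1 lines 3.29, 5.62 and 10.5%. The MEF-2 parent had 65.1% (59.9 to 69.98, an interval too narrow for the same reason). Whether the MEF-2 lines differed from their parent there was not tested.

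Runs near the kidney progenitor homeobox gene Six2 and in Bmp7 show how single lines could depart. Near Six2 (8 CpGs, chr17:85692763-85692854, intergenic) 6 MEF-2 lines lay from 43.5 to 49.7% and line 4 at 34.5%, while the MEF-1 lines had 2.60, 5.78 and 15.5%, the last being line 5. A second run on the same side of Six2 (5 CpGs, chr17:85692024-85692088), named after its values were seen, had line 4 as the highest of MEF-2, at 92.7% where the others had 65.3 to 82.0%, and MEF-1 lines from 4.50 to 26.7%. In the Bmp7 intron (5 CpGs) MEF-2 line 5 had 82.5% and the other 6 lines 26.2 to 47.6%, and no MEF-1 line exceeded 1.54%. Of the 10 longest runs that in Ak5 had the widest spread in MEF-2, where line 1 had 94.9%, lines 5 and 6 had 67.4 and 68.7%, line 4 had 52.2%, and lines 2, 3 and 7 had 36.7 to 40.4%. All 7 Ak5 CpGs differed among the MEF-2 lines by the chi-square test, as did 64.9% of the chosen CpGs and 36.8% of all, but they lie within 130 bp and share reads. The MEF-1 lines stayed between 0.980 and 4.22% there.

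Of the remaining runs among the 10 longest, that in the intron of Nr2f1, a developmental nuclear receptor, had 0.746 to 4.55% in the MEF-1 lines and 42.8 to 71.2% in the MEF-2 lines. That before the start of Dnah6, a heavy chain of the ciliary dynein motor (6 CpGs, chr6:73221716-73221782), had 0.980 to 4.47% in 6 MEF-1 lines, 21.9% in MEF-1 line 6 and 31.4 to 57.4% in the MEF-2 lines. A run 261391 bp from the nearest start, that of Nfe2l3, a leucine zipper transcription factor (6 CpGs, chr6:51171095-51171280, intergenic), had 0 to 3.24 and 41.4 to 61.2%. The run in the UTR of Gm3264, a predicted gene of a repeated family (6 CpGs, chr14:4855577-4855614), had 1.51 to 5.18 and 27.6 to 59.5%. Its sequence occurs 2 times on the 16 chromosomes, and how its reads were placed was not tested. In none of the 10 did the families overlap.

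**Figure D3:**
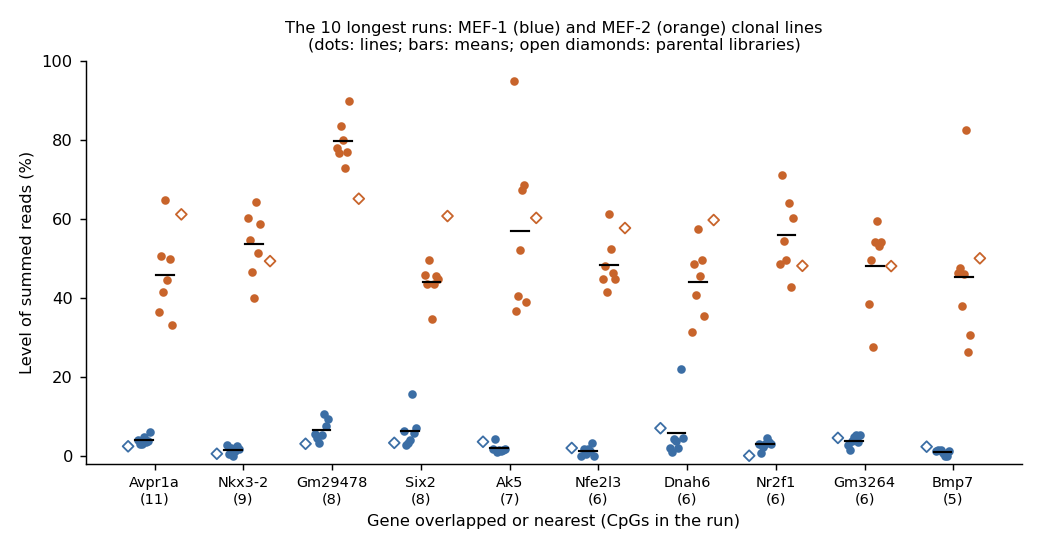
Methylation level of the summed reads in percent (vertical axis) for the 10 longest runs (horizontal axis, with the gene overlapped or nearest and the number of CpGs); dots are clonal lines, bars their means and open diamonds the parental libraries, MEF-1 in blue and MEF-2 in orange. The MEF-2 lines lie above the MEF-1 lines in all 10 runs, and those of Ak5 reach from 36.7 to 94.9%.

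CpGs beside the chosen ones but not themselves chosen show how far the difference extended. Within 100 bp of a chosen CpG, 8195 of 39868 such CpGs (20.6%) were called higher in the MEF-2 clonal lines and 9.23% lower. At 1 to 10 bp 38.6% were called higher, with means of 18.4% ± 0.395 in the MEF-1 and 39.0% ± 1.11 in the MEF-2 lines (SD, n = 7 each). At 11 to 25 bp the share was 27.6% and at 26 to 50 bp 19.8%. At 51 to 100 bp it was 14.8%, and the means were 31.7% ± 0.358 and 33.9% ± 0.656. Past 200 and up to 500 bp 8.19% were called higher and 9.75% lower, near the shares of the table. CpGs within a few bases are read in the same fragments and are not independent.

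**Figure D4:**
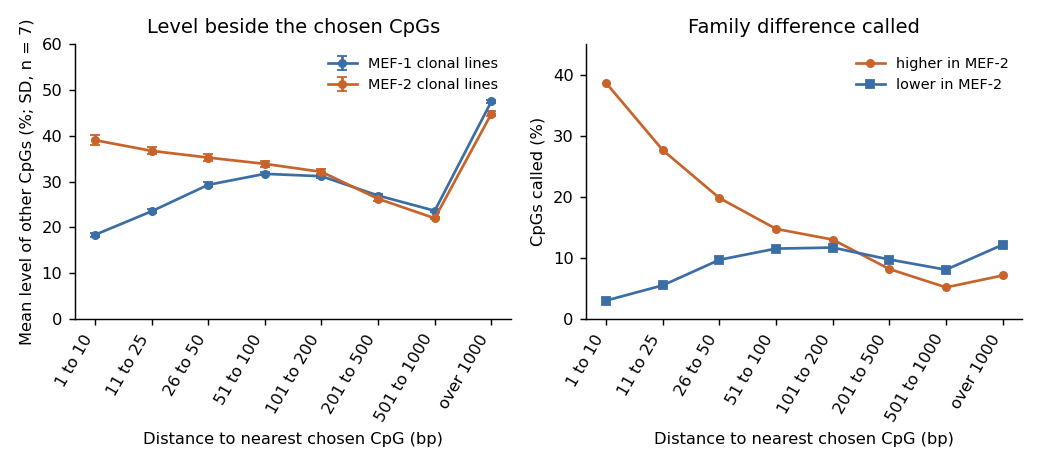
CpGs that were not chosen, by distance in bp from the nearest chosen CpG (horizontal axes): left, mean level in percent in the clones of each family (points; error bars are SD over 7 lines); right, percent of CpGs called higher or lower in MEF-2. The families are 20.6 points apart at 1 to 10 bp and 2.18 points at 51 to 100 bp.

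The nearest measured CpGs were of mixed state. Of 19600 neighbours within 100 bp, 26.8% had 40% or more in the MEF-1 parent, 21.8% had 10 to under 40% there, 17.1% were under 10% in MEF-1 and at 10 to under 40% in MEF-2, 15.97% were under 10% in both and 14.3% were themselves chosen. Where both CpGs of a neighbouring pair were chosen (1399 pairs within 100 bp), their MEF-2 levels lay within 10 points of each other in 53.2% of cases, and their MEF-1 levels in 79.7%. The choice put both CpGs under 10% in the MEF-1 parent, so closeness in MEF-1 follows in part from it. For neighbouring pairs partial in both parents the shares were 38.3% in MEF-2 and 39.0% in MEF-1. Deviations of the MEF-2 lines from the family mean correlated at 0.489 for pairs 1 to 10 bp apart (592 pairs), 0.331 at 11 to 25 bp, 0.202 at 26 to 50 bp and 0.157 at 51 to 100 bp (148 pairs). Over all 1399 chosen pairs it was 0.351 in MEF-2, and over pairs partial in both parents 0.237. This is a description across pairs, which share lines and, at short range, reads.

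By sequence the chosen CpGs were of moderate density. They had a median of 4 other CpGs within 100 bp, against 5 over the table, 10 where both parents were under 10% and 3 where both were partial. They made up 14.6 of 1000 CpGs with enough parental reads at 0 to 2 other CpGs, 12.5 at 6 to 9 and 4.67 at 15 or more. Counted among the CpGs partial in the MEF-2 parent, the order turned, since they were 4.42% of these at 0 to 2 other CpGs, 6.52% at 6 to 9 and 11.6% at 15 or more. The MEF-2 lines had a mean of 53.4% ± 1.25 at the lowest and 56.1% ± 0.808 at the highest density (SD, n = 7 each). The share varying among MEF-2 lines was 69.5% at 0 to 2 other CpGs, 56.3% at 10 to 14 and 58.7% at 15 or more.

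**Figure D5:**
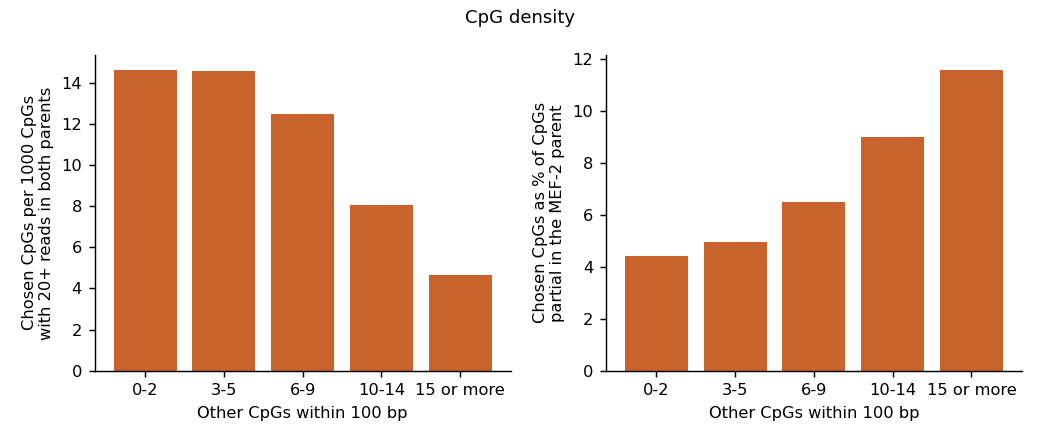
Chosen CpGs by the number of other CpGs within 100 bp (horizontal axes), per 1000 CpGs with 20 or more reads in both parents (left) and in percent of the CpGs partial in the MEF-2 parent (right). The former falls from 14.6 to 4.67 and the latter rises from 4.42 to 11.6%.

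Introns held 32.1% of the chosen CpGs, intergenic DNA 28.6%, promoters (1000 bp before any transcript start of a protein-coding gene) 19.5%, coding exons 7.10% and UTRs 3.68%. The CpGs with enough parental reads had 33.7, 23.1, 21.7, 8.30 and 4.54%. The share called higher was 89.7% in promoters and 84.1% in intergenic DNA, and MEF-2 clonal means were between 51.2 and 55.8% in every class. Each of the 16 chromosomes contributed 10.5 to 14.2 chosen CpGs per 1000, and on each 81.1 to 87.4% of them were called higher. Letters of known motifs within 50 bp, on either strand, were about as frequent as around all CpGs of the table, apart from the GC box. An AP-1 match (TGANTCA) stood beside 2.64% (2.45% of all), an E-box (CANNTG) beside 40.4% (37.6%), a TEAD match (GGAATG) beside 5.61% (5.07%), a CCAAT box beside 12.1% (11.4%) and a RUNX match (TGTGGT) beside 6.35% (6.23%). The GC box (GGGCGG) stood beside 5.08%, against 9.57% of all, but CpGs partial in both parents (4.61%) and CpGs at 90% or more in the MEF-1 parent and partial in MEF-2 (4.09%) were also low, and those under 10% in both parents had 15.9%.

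For genes, reads were summed over whole promoters, which annotation and not the choice delimits. The promoter of a gene here joins the 1000 bp before every one of its transcript starts, and these can lie far apart. The sums include the reads of the chosen CpGs, so promoter calls are not independent of the calls at those CpGs. Grouping promoters by their number of chosen CpGs also uses the choice, and sums without the chosen CpGs are not given here. Of 12045 promoters with 3 or more CpGs, 16.2% were called higher in the MEF-2 clonal lines and 25.4% lower. Among the 1853 with at least 1 chosen CpG 879 were called higher (47.4%) and 208 lower, with a median difference of 3.25 points, where that of all promoters was −0.443. With 3 or more chosen CpGs it was 106 of 136, and with 5 or more 16 of 16. Without MEF-1 lines 1, 4 and 5 the 879 became 700 (37.8%), beside 12.4% of all promoters.

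The promoter of Avpr1a held the most, 13 of 18 CpGs. Its MEF-1 lines had 6.11, 7.14 and 8.85% (lowest, median, highest) and its MEF-2 lines 39.3, 48.0 and 58.8%, a difference of 40.8 points (quasi-binomial model across all promoters, adjusted p = 8.42e-08). Zfp503, a zinc finger repressor gene with 7 of 16 CpGs chosen, had 2.14, 3.88 and 6.93% against 41.0, 52.0 and 59.7%. Pip5kl1, a lipid kinase-like gene (10 of 42 CpGs), had 5.81, 8.24 and 12.9% against 34.3, 39.9 and 44.6%. Ptprg, a receptor tyrosine phosphatase gene (8 of 28), had 1.37, 4.32 and 6.91% against 25.1, 32.6 and 44.8%. In each of these promoters the lowest MEF-2 line was above the highest MEF-1 line. How many of all promoters were free of overlap was not computed. With the window carried on to 500 bp after the start the calls held, but the difference of Ptprg went from 30.0 to 13.8 points and that of Zfp503 from 47.3 to 28.9 points.

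Ccnd1 encodes cyclin D1, which drives cells from G1 into S phase. Of the 19 CpGs of its promoter 7 were chosen, and the lines had 5.87, 8.91 and 12.7% in MEF-1 and 23.9, 36.0 and 49.6% in MEF-2, 25.9 points apart (quasi-binomial model across all promoters, adjusted p = 3.54e-05). Txnip, the thioredoxin-interacting protein gene of glucose response (6 of 47), had a narrow spread, with 16.2 to 21.6% in MEF-1 and 41.8 to 46.5% in MEF-2. Mpv17l, a membrane protein gene (7 of 43), and Dnah6 (8 of 24) differed by 20.2 and 21.6 points. Their lines did not overlap, for which again no share of all promoters was computed. Dst, a cytoskeletal linker gene (5 of 57), and Cops9, a subunit gene of the COP9 signalosome (5 of 18), were called higher too, by 10.6 and 13.7 points, but their lines overlapped, at 27.0 to 37.3% and 37.1 to 45.8% for Dst and 29.6 to 48.8% and 46.6 to 58.8% for Cops9. The CpGs summed for Dst reached from 33907234 to 34293045 of chromosome 1, and those for Mpv17l from 13902188 to 13941019 of chromosome 16. Their levels thus pool distant starts. The longer window gave 14.9 points for Ccnd1, 16.4 (from 25.8) for Txnip and 12.1 for Mpv17l, all still called. With 20 or more reads in all libraries Dnah6 differed by 36.8 points, and with thinning to 10 reads Dst differed by 5.71 points. With 20 or more reads required in all libraries Cops9 differed by 5.54 points and was no longer called (adjusted p = 0.106 in the quasi-binomial model).

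Within transcripts, outside promoters, the most chosen CpGs lay in Gm20388, an annotated transcript that spans 119910841 to 124345722 of chromosome 8 and so covers many other genes. Its 58 of 6127 CpGs had 60.4% ± 3.89 in the MEF-2 and 7.49% ± 1.46 in the MEF-1 lines (SD, n = 7 each). Fgfr2, a fibroblast growth factor receptor whose annotation (130162451 to 133123350 of chromosome 7) likewise reaches over other genes, had 24 of 2082 (47.0% ± 5.39 against 8.46% ± 2.30). As a share of measured CpGs the former is below and the latter near the 1.07% of the whole table. Nr2f1 had 18 of 63, between positions 78195072 and 78195892 of chromosome 13, and Ak5 17 of 159, between 152477887 and 152478492 of chromosome 3, with all of them called higher, beside 85.9% of the chosen CpGs and 8.53% of all. Nkx6-1, a homeobox gene of motor neurons and pancreatic beta cells, had 16 of 74, all called, and the highest MEF-2 level of the 5, 79.6% ± 4.71 against 10.9% ± 4.30.

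Genes were then counted by lists of function. Of 15422 genes that code for protein and with a measured CpG, 4950 (32.1%) had a chosen CpG in promoter or transcript, which is 10.9 per 1000 CpGs with enough parental reads. Homeobox genes outside the Hox clusters had 24.8 per 1000 and 60 of 96 with a chosen CpG. Ligands of the Wnt, Bmp, Fgf and Tgf families had 21.3 (22 of 56 genes), potassium, calcium and sodium channels 21.2 (65 of 114) and Hox genes 16.5 (21 of 39). Markers of other cell types had 15.2, mesenchymal fibroblast genes 14.7, collagens 13.4, cadherins 12.8, T-box, Sox, Fox, Gata and Zic factors 10.7, Zfp genes 9.38 and senescence genes 9.18. The lowest were imprinted genes with 6.04, germline genes with 4.34 (2 of 21) and genes of the DNA methylation machinery with 2.92 (1 of 11). Lists differ in gene length and coverage, and these counts carry no test.

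Whole promoters of the lists, with or without a chosen CpG, are to be read against all 12045 promoters, of which 16.2% were called higher and 25.4% lower. Several lists, among them the Zfp genes and collagens, lay near these shares, and the counts carry no test of a list. Among the other homeobox genes 24 of 80 promoters were called higher in MEF-2 and 19 lower, with a median difference of 1.31 points. For Hox genes it was 9 of 36 higher and 16 lower (median −4.06), and for channels 16 of 76 and 24 (−1.67). The ligands had 9 higher and 9 lower of 35, T-box and related factors 8 and 18 of 58, collagens 4 and 6 of 23, Zfp genes 47 and 86 of 340, germline genes 4 and 7 of 17 and imprinted genes 4 and 7 of 27. Senescence genes had 4 and 1 of 12, DNA methylation genes 2 and 4 of 10 and mesenchymal genes 1 and 1 of 7. Cadherins had 0 higher and 5 lower of 22 by the quasi-binomial model (0 higher at an unadjusted p under 0.05 and 0 by limma). Markers of other cell types had 0 and 5 of 10 (2 higher at an unadjusted p under 0.05 and 1 by limma).

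Of the 15422 genes, 241 carried 5 or more chosen CpGs, and some of those on the lists are described here by their levels. No theme was tested. Hoxd3 had 16 of 341 measured CpGs, at 53.5% ± 3.58 in the MEF-2 and 10.8% ± 4.60 in the MEF-1 lines (SD, n = 7 each, as below). Barx1, a homeobox gene of craniofacial mesenchyme, had 11 of 106 (59.0% ± 4.65 against 5.65% ± 2.70), and Dlx4 had 10 of 100 (61.1% ± 8.24 against 7.55% ± 4.67). Gata2, a factor of blood progenitors, had 8 of 208, at 41.7% ± 9.89 in MEF-2 with lines from 25.7 to 53.8%. Foxe1, a thyroid factor, had 6 of 104, at 65.1% ± 8.82. Among ligands Bmp8b had 10 of 156 (58.8% ± 4.72) and Wnt1 had 5 of 161 (48.3% ± 3.69). Of the channel genes Scn8a, a neuronal sodium channel, had 13 of 302 (61.5% ± 5.56 against 13.2% ± 5.90) and Kcnc2, a potassium channel, had 6 of 53 with MEF-2 lines from 51.6 to 92.7%. Grb10, an imprinted growth adaptor gene, had 5 of 169 at 45.1% ± 4.74 against 7.90% ± 4.93, and the neuronal splicing factor gene Rbfox3 had 6 of 325 at 55.7% ± 6.10 against 6.23% ± 2.62.

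At the ends of the range stood single CpGs that were picked by their clonal values, so these are a description with no test. In the promoter of Tctn1, position 122264792 of chromosome 5, 6 of 381 MEF-1 clonal reads and 379 of 385 MEF-2 clonal reads were methylated, and the lines had 0 to 4.55% and 96.2 to 100%. The parental MEF-2 library had 88.1% there (77.5 to 94.1). In the intron of Gnao1, position 93812450 of chromosome 8, the lines had 0 to 2.38% and 86.3 to 100%. Near-complete methylation in all MEF-2 lines was also seen in introns of Mnx1, a motor neuron homeobox gene (95.5 to 100%), and Gpr146 (94.1 to 98.6%), and 7744 bp from the start of Pofut2 (92.9 to 100%). The MEF-1 lines had at most 6.67% at these 3.

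At the opposite end 3 chosen CpGs were nearly unmethylated in every MEF-2 line although their parent was partial. In the promoter of Pitpnb, position 111330342 of chromosome 5, 1 of 162 MEF-2 clonal reads was methylated, where the parental library had 12 of 23 (52.2%, interval 33.0 to 70.8). In the intron of Eya2, position 165741761 of chromosome 2, 3 of 232 MEF-2 clonal reads were methylated and the parental library had 46.5% (32.5 to 61.1). There the MEF-1 lines were the higher ones, with 0, 13.9 and 55.0% (lowest, median, highest), and the CpG was one of the 2 called lower in MEF-2, a call that was lost with thinning to 10 reads and with a replicate block (adjusted p = 0.0659 and 0.0743 in the quasi-binomial model). In the intron of Gm1604a, position 7079876 of chromosome 17, the MEF-2 lines had 0 to 6.67% and the parent 40% (24.6 to 57.7), but the 60 bases around it occur 2 times on the 16 chromosomes, and how its reads were placed was not tested. Intervals cover counting error only.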

How the data were processed

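Per the labels and the study's methods, DNA of 16 libraries was captured, bisulfite-treated and sequenced, and the authors trimmed reads (Trim Galore 0.6.0 in the submitters' processing notes), aligned them to mm10 with Bismark and combined both strands of a CpG. The deposited values are counts of unmethylated and methylated reads with no normalization, and no source used here says whether PCR duplicates were removed. The deposited series table keeps CpGs with 10 or more reads in all 16 libraries and leaves out chromosomes 12, 18, 19, X and Y, and its counts equalled those of the library tables at 100% of values. It also holds the authors' fidelity and neighbour similarity scores, each a fraction of the 14 clonal lines, and a score that counts CpGs within 100 bp. The deposited methylated percent and the coverage (2 columns) were not used, as both follow from the counts.

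Here levels were computed from the counts, with each library placed by its label. Members and lists were chosen with earlier results of these data known. Family differences were tested by a quasi-binomial logistic model (F-test, Pearson dispersion not below 1) of 7 against 7 clonal lines at every CpG, and on summed counts per promoter, and spread among lines by a chi-square test, all with Benjamini-Hochberg adjustment and a threshold of 0.05. Both tests were first tried on simulated counts. Genes came from GENCODE M21, and density, motifs and sequences from GRCm38.p6. Python 3.11.15, numpy 2.4.6, scipy 1.17.1, R 4.3.3 and limma 3.58.1 were used. Genes were named by fixed counts: the 10 longest runs, the 10 promoters and 5 transcripts with most chosen CpGs, up to 3 genes with 5 or more per list (not all are printed), and the 5 CpGs with the widest called difference and 3 with the lowest MEF-2 mean. The last places of runs and of promoters were tied at 5 chosen CpGs, and ties went to the lower chromosome, then the lower position. Alternatives changed coverage, lines, chromosomes, the rule, the promoter window and the model.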

Additional observations from a re-analysis of the deposited data

Results flagged for a closer look

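Among 52 groups of 7 lines, 6 had a line far from the others by Dixon's ratio, where chance gives about 1 in 20. In MEF-2 line 3, 25% of the chosen CpGs lay at 10 to under 40%, against 17.7 to 19% in the other lines. The run near Six2 had 15.5% in MEF-1 line 5 (others 2.60 to 7.05%) and 34.5% in MEF-2 line 4 (others 43.5 to 49.7%). The run in Ak5 had 4.22% in MEF-1 line 2 (others 0.980 to 1.80%), that before Dnah6 21.9% in MEF-1 line 6 (others 0.980 to 4.47%), and that in Bmp7 82.5% in MEF-2 line 5 (others 26.2 to 47.6%).

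The series table leaves out chromosome X. With the same limits on coverage and level, 1420 of 11690 CpGs of chromosome X met the rule, which is 121 per 1000, where the 16 chromosomes of the table had 12.2 per 1000. The opposite pattern (MEF-2 parent under 10%, MEF-1 parent partial) was met by 10.5 per 1000 on X and by 13.7 in the table. The X-linked CpGs had 4.13% ± 0.518 in the MEF-1 and 47.7% ± 0.981 in the MEF-2 clonal lines (SD, n = 7 each). As background, females silence 1 of their X chromosomes, whose CpG islands become methylated, and MEF-2 is the female line by the study's methods. The part of sex in this result was not tested.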

How the results depend on the processing

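The counts of called CpGs, of varying CpGs and of called promoters and the mean difference were recomputed as 87 values. Of these, 77 stayed within their limits and 10 moved beyond them. Counts could only stay or move, so a reversal was possible for the mean difference alone, which did not reverse. The varying count rests on MEF-2 lines only, so leaving out MEF-1 lines could not change it. The calls higher in MEF-2 (11091 CpGs) became 6419 of 7194 with 20 or more reads in all libraries, 3682 of 4300 on the chromosomes of even coverage (3, 4, 6, 9 and 11) and 1861 of 2020 under a stricter rule (MEF-1 parent under 5%, MEF-2 parent 50 to under 80%, 30 or more reads), with fewer CpGs entering each. Varying CpGs (8384) became 4953, 2905 and 1319 in the same order, and 3278 when libraries were thinned to 10 reads. With 20 or more reads in all libraries, 89.2% of the chosen CpGs were called higher, beside 9.71% of all CpGs. Under that setting 68.8% varied, beside 42.1% of all, and 57.9% of promoters with chosen CpGs were called, beside 18.2% of all promoters. Thinned, 25.4% varied, beside 14.9% of all. Other settings here are given as counts without the shares of all CpGs or promoters. Called promoters (879) became 318 on the even chromosomes and 244 under the stricter rule, where the mean difference was 48.3 points. Leaving out each line in turn gave 10636 to 10834 calls, 7523 to 8384 varying CpGs, 825 to 854 promoters and 45.2 to 45.7 points. With promoters carried on to 500 bp after the start 1018 of 2413 were called. By limma 11647 CpGs and 867 promoters were called. The line numbers do not pair the families: same-numbered lines deviated together with correlations of −0.0115 to 0.0200, and 2 of 7 matched best with their own number. With the replicate block 9914 CpGs and 787 promoters were called. The Eya2 CpG lost its call under the block (adjusted p = 0.0743) and with thinning (adjusted p = 0.0659), in the quasi-binomial model. The 39868 neighbours were examined after seeing the data. With 20 or more reads they had 4558 calls of 21008 (21.7%, beside 9.71% of all CpGs), and on even chromosomes 2634 of 13344. Single CpGs rest on a median of 29 to 43 reads per library, which limits how closely 1 line's level is known, and each parental library was sequenced once.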

Other observations

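The 3 autosomes that the series table leaves out had 10.7 to 13.2 CpGs meeting the rule per 1000 with enough parental reads, 414 of them on chromosome 12, where MEF-1 clones averaged 6.67% ± 0.617 and MEF-2 clones 54.8% ± 2.06 (SD over 7 lines). A further 915 CpGs of the table were under 10% in the MEF-1 parent and at 90% or more in the MEF-2 parent, with clonal means of 9.85% ± 1.16 and 92.8% ± 0.573. The opposite pattern, MEF-2 parent under 10% and MEF-1 parent at 40 to under 90%, was met by 14565 CpGs of the table. Of these, 83.5% were called lower in MEF-2 by the quasi-binomial model, beside 11.6% of all CpGs. Clonal lines of MEF-1 averaged 50.7% ± 2.11 there and those of MEF-2 7.54% ± 0.421 (SD over 7 lines). A median of 4 other CpGs lay within 100 bp, as at the chosen CpGs. The between-clone variance share was 0.0902 ± 0.00761 in the partial family, MEF-1 (jackknife SE over 7 lines). It was 0.126 ± 0.0102 in MEF-2 at the CpGs described above. At CpGs partial in both parents the share was also lower in MEF-1 (0.109 ± 0.00950) than in MEF-2 (0.155 ± 0.0107). These differences were not tested.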
